A study of Mus musculus with 5 samples.

Results

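The genes described here encode the proteins that hydroxylate, fold and cross-link collagen: the lysyl oxidases Lox, Loxl1, Loxl2 and Loxl3, the prolyl 4-hydroxylase alpha subunits P4ha1 and P4ha2, the lysyl hydroxylases Plod1, Plod2 and Plod3, and the collagen chaperone Serpinh1. They were taken by symbol from the count table, and all 10 were present among its 24062 genes. The study sequenced RNA of mitral valve leaflets from mice to compare the transcriptome with and without Ift88, a component of the intraflagellar transport machinery that builds cilia. The groups follow the titles, which name 2 wild type (WT) and 3 knockout (KO) libraries. The genotype given for WT is NfatC1Cre(+) with Ift88f/f and that for KO is NfatC1Cre(+) with Ift88+/+, so the floxed allele stands with the group titled WT. All libraries thus carry the Cre driver of Nfatc1, a gene of the endocardium and valve endothelium, and cells outside its lineage would keep the gene in either group. Neither the age and sex of the mice nor the number of animals per library is stated in the labels, and nothing states that the libraries came from separate animals. The p-values therefore measure the spread between these libraries, which may be technical.

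Fibrillar collagen is built in the endoplasmic reticulum, where prolyl hydroxylation lets the triple helix hold at body temperature and lysyl hydroxylation prepares the sites of later cross-links. Serpinh1 binds the finished helix and escorts it to the Golgi. Outside the cell the lysyl oxidases, which are copper enzymes, oxidise lysine side chains of collagen and elastin, and the products condense into the cross-links that give a valve leaflet its tensile strength. In the mitral valve these genes act mainly in interstitial cells, which lay down the collagen, proteoglycan and elastin layers of the leaflet.

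Ift88 itself stood at 7.54 and 19.8 CPM, that is reads scaled to library size by TMM, for WT and at 3, 3.92 and 0.409 for KO (log2 fold change -2.48, SE 1.13, edgeR adjusted p = 0.81), so it was lower in the libraries titled KO. Library totals lay between 23361414 and 53789026 reads, and each of the 10 genes had between 210 and 95894 reads in a library. The WT libraries differed widely. Their log2 CPM had a Pearson correlation across 14244 genes of 0.773, the lowest of all pairs, against 0.863 to 0.909 among KO libraries. The 10 cardiomyocyte markers summed to 97.1 CPM in WT replicate 2, and to 56158 CPM in WT replicate 1 and 26077 to 33868 in KO. The 10 endothelial markers summed to 338 CPM in WT replicate 1 and to 1926 to 3056 in the other 4 libraries. Interstitial markers were all detected in all libraries and summed to 2627 and 7671 CPM in WT and to 7302 to 10604 in KO. This sum includes Col1a1, Col3a1 and Postn, whose own differences are described below, so it is no separate measure of makeup. Across the KO libraries Col3a1 ranged from 1969 to 2499 CPM and Postn from 1561 to 3014. WT replicate 1 had 431 CPM of Col3a1 and 374 of Postn, while WT replicate 2 had 1098 and 1003. Both lowest KO values were those of KO replicate 3, whose interstitial sum of 7302 CPM was nearest to the 7671 of WT replicate 2. In whole tissue, fewer cells of a type and less RNA per cell cannot be told apart. The part of these differences in makeup in the results below was not tested. Fits without each WT library are given for the members and for the list medians.

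Of the enzymes, Loxl1 and Loxl2 were higher in KO by the widest margins, Lox was higher with a narrow gap to WT, Loxl3 was lower, and the hydroxylases and Serpinh1 overlapped between groups. None of the 10 passed an adjusted p of 0.05 in edgeR's quasi-likelihood test, as for all genes (0% of 14244). For 3 of the 10 the KO libraries were all above the WT pair, beside 13.5% of all genes, and for 1 they were all below, beside 11.1%. At an unadjusted p under 0.05 there were 2 members, Loxl1 and Loxl2, both higher, beside 4.57% of all genes higher and 1.27% lower. The median log2 fold change of the 10 was 0.31, and that of all genes was -0.01. Without WT replicate 1 the median of the 10 was 0.05 (all genes 0.15). Of the 10, 3 then lay above WT, beside 27.5% of all genes, and 4 below. Without WT replicate 2 the median was 0.83 (all genes 0.25). In that fit 7 lay above WT, beside 30.6% of all genes, and 1 below. The share of all genes below WT is not given for these fits, so the counts of members below WT cannot be judged against it. Without KO replicate 1 the median of the 10 was -0.03 (all genes -0.05). Leaving out KO replicates 1, 2 and 3 in turn gave 3, 4 and 4 of the 10 above WT, beside 20%, 16.9% and 21.5% of all genes. In the 3 libraries whose titles share a code (WT replicate 1 and KO replicates 1 and 2) 8 members lay above WT, where 41.2% of all genes did.

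**Figure D1:**
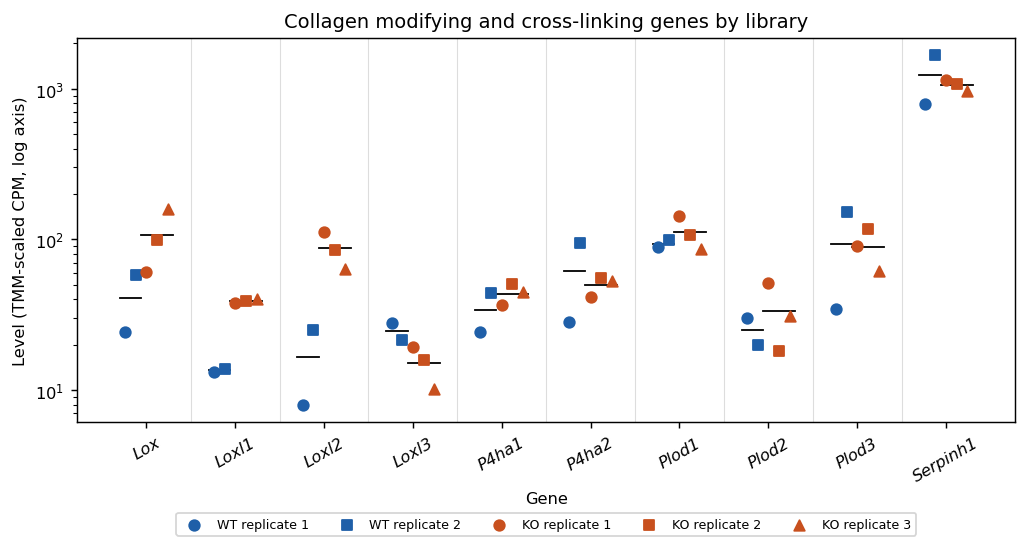
TMM-scaled CPM (log axis) of the 10 genes, 1 point per library, with WT libraries in blue and KO libraries in orange. The black line marks the mean of a group, and no error is drawn. KO libraries lie between 37.7 and 40.2 CPM for Loxl1, above the WT libraries at 13.2 and 13.8, and the 2 groups overlap for Serpinh1.

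Loxl2 showed the widest difference of the lysyl oxidase genes. It encodes an oxidase with scavenger receptor domains that cross-links collagen IV as well as fibrillar collagen, and maps to chromosome 14 (69609068 to 69695834, plus strand) of GRCm38, the build of all positions given. Its level was 7.99 and 25 CPM (WT) and 112, 85.4 and 63.4 CPM (KO). The lowest KO library thus stood well above the higher WT library. The log2 fold change was 2.40 (SE 0.62, edgeR unadjusted p = 0.00801, adjusted p = 0.81), a 5.27-fold difference. It was 1.77 with WT replicate 1 left out and 3.44 with WT replicate 2 left out, and 1.81 with the trend over transcript length taken out of every library. DESeq2 called Loxl2 on the same counts (log2 fold change 2.33, adjusted p = 0.031). Exons of Loxl2 share 301 nt with Gm27177, an antisense gene on the other strand that is not among the genes counted. The kit does not mark strand, so reads there cannot be assigned to either gene.

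Loxl1, the oxidase that acts on tropoelastin and is needed for elastic fibre upkeep, had the tightest groups. The gene maps to chromosome 9 (58287738 to 58313186, minus strand). WT libraries stood at 13.2 and 13.8 CPM and KO libraries at 37.7, 39 and 40.2 CPM, with no overlap. The difference, 2.89-fold, was 1.53 on the log2 scale (SE 0.41, edgeR unadjusted p = 0.00886, adjusted p = 0.81). It moved little when any 1 library was left out, between 1.46 and 1.56, and was 1.37 with the length trend removed. DESeq2 called it as well (log2 fold change 1.46, adjusted p = 0.0383). Loxl1 and Loxl2 were the 2 of the 10 genes that DESeq2 called, and DESeq2 called 1.6% of the 13682 genes to which it gave an adjusted p.

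Lox, the founding member, which cross-links collagen and elastin after its propeptide is cut off, varied within both groups. It maps to chromosome 18 (52516067 to 52529867, minus strand). Its level was 24.1 and 57.6 CPM for WT, with KO libraries at 60.7, 98.2 and 160. KO replicate 1 was only slightly above WT replicate 2, and the groups overlapped when libraries were scaled by totals alone or when the length trend was removed. The log2 fold change was 1.38 (SE 0.60, edgeR unadjusted p = 0.0587, adjusted p = 0.81), and it became 0.85 when WT replicate 1 was dropped, 2.14 when WT replicate 2 was, and 0.96 when KO replicate 3 was.

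Loxl3, a scavenger receptor type oxidase closely related to Loxl2, stood the other way. Its level was 27.8 and 21.6 CPM in the WT pair against 19.2, 15.8 and 10.2 in the KO libraries, so every KO library was below both WT libraries. The gap was small, and the log2 fold change was -0.71 (SE 0.51, edgeR unadjusted p = 0.211, adjusted p = 0.881). The value was negative in each of the 14 other fits tried, between -1.04 and -0.50. Loxl3 maps to chromosome 6 (83034173 to 83052562, plus strand), and 535 nt of its exons are shared with exons of Htra2 on the other strand. The library kit does not mark strand, so reads there cannot be assigned to either gene, and Htra2 stood at 50.5 and 29.4 CPM (WT) and 34.3, 18.3 and 23 CPM (KO). The other lysyl oxidase gene, Loxl4, which is no member here, had 0 reads in WT replicate 1 and KO replicates 1 and 2 and stood at 4.07 CPM in WT replicate 2 and 3.6 in KO replicate 3.

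**Figure D2:**
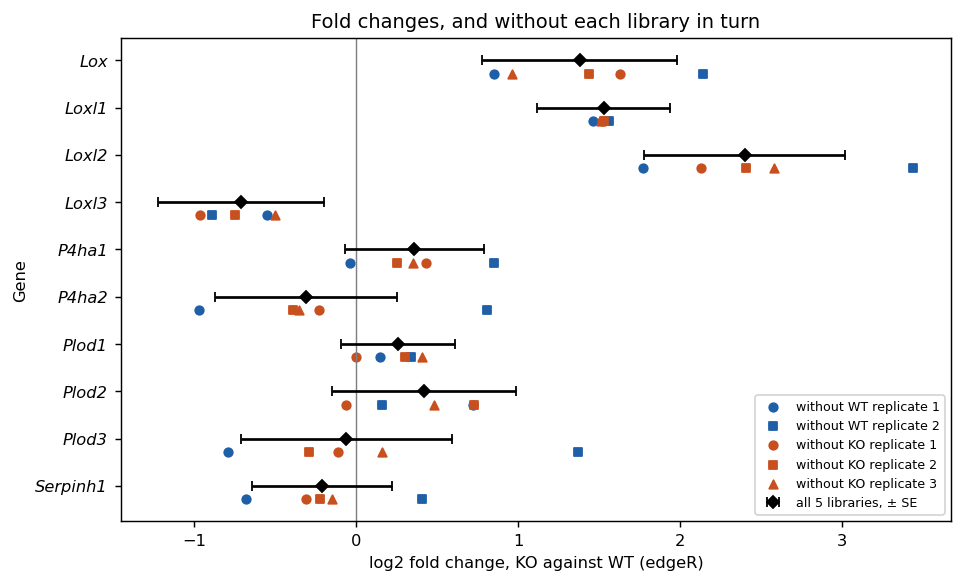
Log2 fold change of each gene, KO against WT, in the edgeR fit to all 5 libraries (black diamonds, bars ± SE) and with each library left out in turn (coloured symbols under each diamond). Loxl1 stays between 1.46 and 1.56, while Plod3, at -0.06 with all libraries, moves to 1.37 without WT replicate 2.

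The prolyl 4-hydroxylase alpha subunits overlapped between groups. P4ha1 (chromosome 10, plus strand, 59323296 to 59373304), the catalytic subunit of the main form of the enzyme, stood at 24.2 and 43.9 CPM for WT, with KO libraries at 36.5, 50.1 and 44.4. P4ha2 (chromosome 11, plus strand, 54100095 to 54131665), the subunit abundant in cartilage and endothelium, stood at 28.4 and 95 CPM in the WT pair against 41.1, 55.3 and 52.9 in the KO libraries. Both WT libraries bracketed all KO libraries for P4ha2, and the WT libraries lay further apart than the KO libraries for both genes. The log2 fold changes were 0.36 (SE 0.43) for P4ha1 and -0.31 (SE 0.56) for P4ha2, with adjusted p = 0.936 and 0.963 by edgeR. Their signs rested on single WT libraries. P4ha1 was -0.04 with WT replicate 1 left out and 0.85 with WT replicate 2 left out, and P4ha2 was -0.97 and 0.81 in the same fits.

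Among other genes of prolyl hydroxylation, 0 of 8 tested passed, 2 lay above WT in every KO library and 0 below, and the median log2 fold change was 0.02 (-0.20 with WT replicate 1 left out and 0.37 with WT replicate 2 left out). P4ha3, a further alpha subunit, was at 8.87 and 3.24 CPM (WT) and 16.9, 35.7 and 30.2 CPM (KO) (log2 fold change 2.19, SE 0.70, edgeR unadjusted p = 0.0201). Leprel2, which encodes a prolyl 3-hydroxylase, was at 7.42 and 9.19 CPM for WT, with KO libraries at 21.1, 17 and 13.6. P4hb, the beta subunit that completes the tetramer and is also a disulphide isomerase, differed by a log2 value of 0.03 (SE 0.40). Ppib, the cyclophilin that speeds proline turns in the helix, differed by -0.76 (SE 0.65), and KO replicate 3 was the lowest library at 87.2 CPM against 301 and 549 in WT. Lepre1, the partner of Ppib in prolyl 3-hydroxylation, differed by -0.42 (SE 0.45).

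Promoter sequences were looked up because several of these genes are textbook targets of hypoxia-inducible factors, whose response element holds the core ACGTG or GCGTG. Only the form ACGTG was searched. RefSeq promoters (GRCm38.p6, 250 bases before to 50 after the start) were held for 5 of the 10 members, P4ha1, P4ha2, Plod1, Plod3 and Serpinh1. ACGTG was found on either strand in 4 of them, all but Plod1, and in 19.6% of all 32851 promoters of the same length. Other motifs were searched too. The GC box was also in 4 of the 5 (35.7% of all promoters), the TATA box in 2 (13.6%) and the CCAAT box in 1 (37.4%). The stretches around the ACGTG matches are given 5′ to 3′ along the gene, with ACGTG or its reverse complement CACGT in capitals. The P4ha1 stretch is chr10:59323260-59323295 (plus strand), that of P4ha2 is chr11:54100826-54100870 (plus strand), that of Plod3 is chr5:136986945-136986989 (plus strand) and that of Serpinh1 is chr7:99353386-99353430 (minus strand). The RefSeq start used for P4ha2 lies inside the span that GENCODE gives the gene.
P4ha1: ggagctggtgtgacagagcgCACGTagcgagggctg
P4ha2: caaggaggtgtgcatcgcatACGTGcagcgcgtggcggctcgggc
Plod3: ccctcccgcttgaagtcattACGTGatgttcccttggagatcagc
Serpinh1: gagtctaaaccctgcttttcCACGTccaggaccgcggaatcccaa
The match is a description of letters, not of a bound site. The 4 genes that hold it all overlapped between groups. Of 13 hypoxia-response genes 0 passed the edgeR test, 1 lay above WT in every KO library and 0 below, and the median log2 fold change was -0.44. That median turned with the WT library used, to 1.06 with WT replicate 1 left out and -1.09 with WT replicate 2 left out. Ldha, the lactate dehydrogenase subunit, was at 8930 and 1578 CPM in the WT pair against 4590, 2323 and 2138 in the KO libraries, and Bnip3, a mitophagy receptor, was at 1165 and 137 CPM (WT) and 632, 236 and 149 CPM (KO). Both were highest in WT replicate 1, the library with the highest sum of cardiomyocyte markers. Ankrd37, an ankyrin repeat protein, differed by a log2 value of -1.04 (SE 1.19), and Adm, the adrenomedullin precursor, was at 29 and 7.28 CPM for WT, with KO libraries at 1.83, 12.6 and 8.19.

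The 3 lysyl hydroxylases overlapped between groups as well. Plod1 (chromosome 4, minus strand, 147909753 to 147936767), which acts on lysines within the triple helix, stood at 88.2 and 98.8 CPM in the WT pair against 143, 106 and 86.7 in the KO libraries. Plod2 (chromosome 9, plus strand, 92542223 to 92608428), which acts on the telopeptides from which the stable cross-links of stiff tissue form, stood at 30 and 19.9 CPM (WT) and 51.5, 18 and 30.8 CPM (KO). Plod3 (chromosome 5, plus strand, 136987019 to 136996648), which also adds the sugars to hydroxylysine, stood at 34.6 and 151 CPM for WT, with KO libraries at 90.4, 117 and 61.2. Plod2 was highest in KO replicate 1 and lowest in KO replicate 2, and Plod3 had its highest and its lowest value in the WT group. The log2 fold changes were 0.26 (SE 0.35) for Plod1, 0.42 (SE 0.57) for Plod2 and -0.06 (SE 0.65) for Plod3, with adjusted p = 0.946, 0.945 and 0.996 by edgeR. For Plod3 the value was -0.79 with WT replicate 1 left out and 1.37 with WT replicate 2 left out, so its sign depended on which WT library was used. In the same fits Plod1 was 0.15 and 0.34, and Plod2 was 0.72 and 0.16. Exons of Plod3 share 529 nt with Znhit1 on the other strand, where reads cannot be assigned, and Znhit1 stood at 34.9 and 39.4 CPM in the WT pair against 29.5, 23.9 and 14.5 in the KO libraries. Those of Plod2 share 346 nt with Gm38391 on the other strand, which is not among the genes counted.

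Serpinh1 was by far the most abundant of the 10 genes, at 350 to 731 CPM per kb of transcript, where no other member was above 46.2. It maps to chromosome 7 (99345376 to 99353239, minus strand). WT libraries stood at 796 and 1662 CPM and KO libraries at 1147, 1070 and 965 CPM, between them. The log2 fold change was -0.21 (SE 0.43, adjusted p = 0.975 by edgeR), and it was -0.68 with WT replicate 1 left out and 0.41 with WT replicate 2 left out. Of 13 tested genes of folding, glycosylation and export 0 passed, 4 lay above WT in every KO library and 0 below, and the median log2 fold change was 0.04 (-0.28 and 0.67 when WT replicates 1 and 2 in turn were dropped). The 4 were Sec24d, a coat protein of the vesicles that carry procollagen, at 57.5 and 73.7 CPM (WT) and 107, 150 and 152 CPM (KO) (log2 fold change 1.06, SE 0.35), Creb3l1, a transcription factor of collagen secretion (1.55, SE 0.63), Mia3, the receptor that loads procollagen for export (0.73, SE 0.42), and Sparc, a collagen-binding glycoprotein (0.60, SE 0.38). Klhl12, the ubiquitin ligase adaptor that enlarges these vesicles, differed by a log2 value of -0.41 (SE 0.43).

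The families were compared within each library, a comparison chosen after the values were seen. A ratio within a library needs no scaling between libraries, but it can still carry a trend over transcript length. Neither these ratios nor those to type I collagen below were recomputed with that trend removed. Per kb of transcript the lysyl oxidase genes summed to 17.4 and 26.3 CPM in WT and to 50, 52.5 and 60.4 in KO, while the lysyl hydroxylases summed to 40.2 and 75.7 in WT and to 76.5, 66.4 and 48.2 in KO. The ratio of the first to the second was 0.432 and 0.347 for WT, with KO libraries at 0.653, 0.79 and 1.25. Against the prolyl 4-hydroxylase alpha subunits the ratio was 1.14 and 0.628 in the WT pair against 2.23, 1.72 and 2.14 in the KO libraries. Against Serpinh1 it was 0.0496 and 0.036 (WT) and 0.0991, 0.111 and 0.142 (KO). In no case did the groups overlap: all 3 ratios were higher in KO, by 2.23-fold, 2.38-fold and 2.75-fold on the mean log2 scale. Each had an exact two-sided permutation p of 0.1 (adjusted 0.1 over 3 ratios), the smallest that 2 against 3 libraries can give, so none could pass 0.05. The 3 ratios share their numerator, the lysyl oxidase sum, so they are not independent. As the comparison was chosen from these same values, neither the p-values nor the fits without single libraries test it. On the log2 scale the differences were 1.16, 1.25 and 1.46, and each stayed positive, between 0.82 and 1.69, when any 1 library was left out.

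Within the lysyl oxidase family the shares of Loxl3 and Loxl2 did not overlap between groups, and those of Lox and Loxl1 did. Shares within a family depend on each other, since higher levels of some genes lower the share of the rest. The level of Loxl3 itself was 1.64-fold lower in KO. Loxl3 gave 39.1 and 20% of the family's per-length level in WT and 9.38, 7.35 and 4.1% in KO (29.6% ± 13.5, SD, n = 2, against 6.94% ± 2.66, SD, n = 3, exact permutation p = 0.1). Loxl2 gave 8.65 and 17.9% in WT and 42.1, 30.6 and 19.7% in KO, also without overlap (exact permutation p = 0.2). The share of Loxl1 was 15.9 to 23% over all libraries, and that of Lox ran from 25.6 to 56%. In the other families P4ha1 gave 38.8 to 40.7% of the alpha subunits in KO and 39.2 and 25.9% in WT, and Plod3 gave 26.2 and 61.0% of the lysyl hydroxylases in WT and 36.0 to 53.7% in KO. None of the 9 shares could pass 0.05, and the smallest adjusted p was 0.45.

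**Figure D3:**
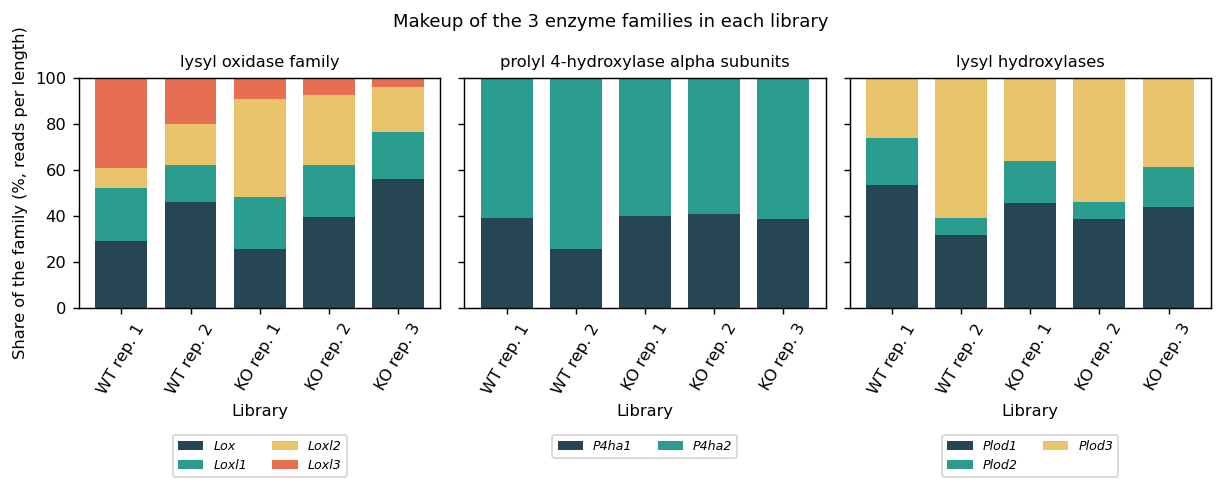
Share of each gene in the per-length level of its family (reads per kb of the longest transcript, percent), 1 bar per library, for lysyl oxidases, prolyl 4-hydroxylase alpha subunits and lysyl hydroxylases. Loxl3 takes 39.1 and 20% of its family in WT and at most 9.38% in KO, while the makeup of the other families overlaps between groups. Shares within a family depend on each other.

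Col1a1 and Col1a2, the chains of type I collagen and the main substrate of these enzymes, summed to 213 and 175 CPM in WT and to 1185, 1525 and 1000 CPM in KO. For every 100 reads of type I collagen, Serpinh1 had 374 and 950 reads in WT and 96.8, 70.2 and 96.5 in KO. Plod1 had 41.4 and 56.5 such reads for WT, with KO libraries at 12.1, 6.92 and 8.67, and P4ha1 had 11.4 and 25.1 in the WT pair against 3.08, 3.28 and 4.44 in the KO libraries. For 8 of the 10 genes, all but Lox and Loxl2, every KO library had fewer reads per collagen read than both WT libraries. The same held for 72.1% of the 14242 genes tested other than these collagen chains, so the count for the 10 is near that of genes in general. Each of the 8 had an exact two-sided permutation p of 0.1 (adjusted 0.125 over 10 genes), the smallest possible. The 10 ratios share their denominator, so the genes are not independent here. The widest difference was that of Loxl3, with 13.1 and 12.3 reads in WT and 1.62, 1.04 and 1.02 in KO, 10.6-fold lower. Loxl2 had the ratio that differed least, with 3.76 and 14.3 reads in WT and 9.45, 5.6 and 6.34 in KO (log2 difference -0.08, exact permutation p = 0.9). Lox, with 11.3 and 32.9 reads (WT) and 5.13, 6.44 and 16 reads (KO), overlapped. The median log2 difference of the 10 was -2.37, beside -2.57 over all genes, which carry the same higher collagen reads in KO as denominator. It was -1.63 when Col3a1 was added to the collagen reads and -1.70 without WT replicate 2.

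**Figure D4:**
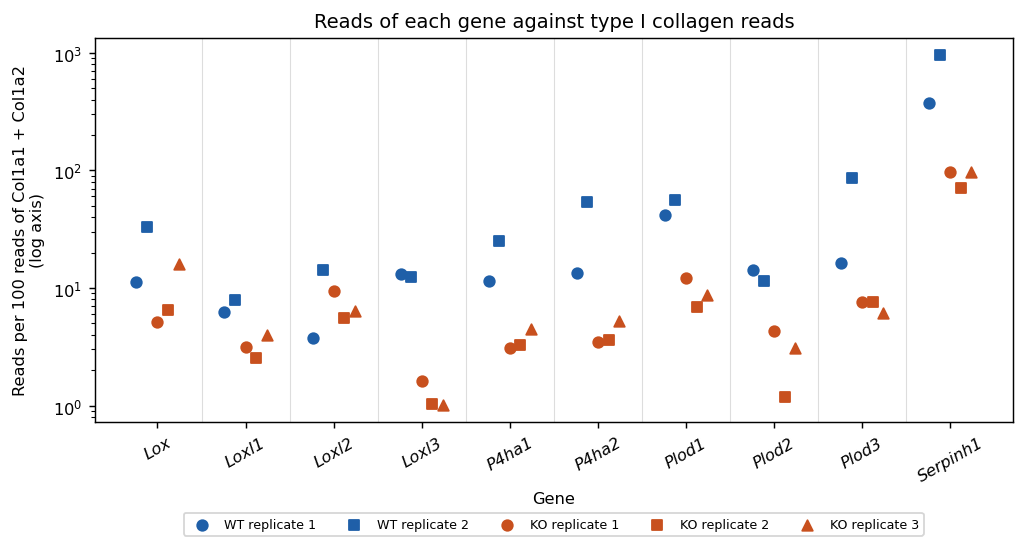
Reads of each gene per 100 reads of Col1a1 and Col1a2 in the same library, on a log axis, with WT libraries in blue and KO libraries in orange. KO libraries lie below both WT libraries for 8 of the 10 genes, beside 72.1% of all genes tested, and the groups overlap for Lox and Loxl2.

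The substrates and partners were described by lists in the same fit. Over all genes tested, 13.5% lay above both WT libraries in every KO library and 11.1% below. Of 11 fibrillar collagen chains 0 passed the edgeR test, all 11 had a positive fold change, 7 lay above WT in every KO library and 0 below, and the median log2 fold change was 3.07 (3.55 and 2.58 when WT replicates 1 and 2 in turn were dropped). Col3a1, the chain of type III collagen, stood at 431 and 1098 CPM for WT, with KO libraries at 2174, 2499 and 1969 (log2 fold change 1.53, SE 0.52). Col1a1 and Col1a2 gave log2 fold changes, in this order, of 3.08 (SE 0.45) and 2.53 (SE 0.39), and Col5a2, a chain that sets fibril diameter, had one of 1.51 (SE 0.61). Col5a1, its partner chain, had one of 1.89 (SE 0.55). Col5a3, Col11a2 and Col24a1 had at most 3 reads over the WT libraries, so their fitted fold changes are not read. They stay in the count and in the median of the list. The median was the same with the genes that lack reads in WT placed at their bounds, but these lay above it either way. Col2a1 (3.13, SE 3.73) and Col27a1 (2.61, SE 2.15) were imprecise too. The median of 3.07 thus rests partly on sparsely read genes, and Col1a2, Col3a1, Col5a1 and Col5a2 all lay below it. Of interstitial markers that are no collagens, Dcn, the proteoglycan decorin, was at 564 and 1006 CPM in the WT pair against 1536, 1120 and 1062 in the KO libraries, and Lum, lumican, at 355 and 635 CPM (WT) and 741, 481 and 349 CPM (KO). Pdgfrb was at 19.8 and 26.2 CPM (WT) and 84.3, 65.2 and 65.4 CPM (KO). Vim, Pdgfra, Tcf21 and Twist1 overlapped between groups. Of all 10 interstitial markers, collagens included, 5 lay above WT in every KO library and 0 below, beside 13.5% and 11.1% of all genes. Endothelial markers were similar, with 4 of 10 above WT in every KO library and 0 below.

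Among 10 partners of the lysyl oxidases in elastic fibres 0 passed, all 10 had a positive fold change, 6 lay above WT in every KO library and 0 below, and the median log2 fold change was 1.28 (0.66 and 2.06 in those fits). Fbn2, a microfibril protein, stood at 42.5 and 57.5 CPM for WT, with KO libraries at 150, 228 and 187 (log2 fold change 1.91, SE 0.37, edgeR unadjusted p = 0.00195). Fbln5, which tethers Loxl1 to elastin, stood at 55.9 and 73.4 CPM in the WT pair against 172, 133 and 227 in the KO libraries (1.46, SE 0.38), and Mfap4, a microfibril-associated protein, at 90 and 97.4 CPM (WT) and 277, 220 and 213 CPM (KO) (1.34, SE 0.32). Fbn1, the main fibrillin, differed by a log2 value of 1.84 (SE 0.55). Eln, the elastin gene, was at 66.6 CPM in WT replicate 1 and 1017 in WT replicate 2, which overlapped the KO values of 661, 1383 and 1631. Mfap5, another microfibril protein, had the smallest log2 fold change of the list, 0.16 (SE 0.67).

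Of 9 tested genes of procollagen processing and other cross-linking 0 passed, 1 lay above WT in every KO library and 0 below, and the median log2 fold change was 0.55 (0.69 and 1.56 when WT replicates 1 and 2 in turn were dropped). The 1 was Adamts2, the protease that removes the amino propeptide, at 10.2 and 6.14 CPM for WT, with KO libraries at 22.1, 36.1 and 46.5 (log2 fold change 2.10, SE 0.57). Bmp1, which removes the carboxyl propeptide and activates Lox, overlapped, at 17.6 and 61.6 CPM in the WT pair against 39.3, 78.3 and 65.3 in the KO libraries. Tgm2, a transglutaminase that forms other cross-links, overlapped too, at 319 and 55 CPM (WT) and 288, 338 and 193 CPM (KO). Pcolce, an enhancer of Bmp1, differed by a log2 value of 0.33 (SE 0.51). Of 6 genes that supply the cofactors copper and ascorbate 0 passed, 1 lay above WT in every KO library and 0 below, and the median log2 fold change was 0.31 (0.56 and 0.54 in those fits). Atp7a, the pump that loads copper into secreted enzymes, stood at 19.2 and 35.4 CPM for WT, with KO libraries at 65.3, 93.7 and 91.3 (log2 fold change 1.61, SE 0.44, edgeR unadjusted p = 0.0102). The copper importer Slc31a1 differed by a log2 value of -0.06 (SE 0.31), the copper chaperone Atox1 by -0.89 (SE 0.53) and the ascorbate transporter Slc23a2 by 0.31 (SE 0.51). Slc23a1, the other ascorbate transporter, had 0 and 5 reads in WT and at most 38 in KO.

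Of 11 genes known to respond to TGF-beta, a main inducer of matrix genes in valve interstitial cells, 0 passed the edgeR test. Fold changes were positive for 9 of the 11 and negative for 2. In every KO library 8 lay above WT and 0 below. The median log2 fold change was 1.22 (0.67 and 2.47 when WT replicates 1 and 2 in turn were dropped). Ctgf, a matricellular growth factor, stood at 71 and 82.8 CPM in the WT pair against 265, 440 and 223 in the KO libraries (log2 fold change 2.01, SE 0.43). Postn, periostin, which helps Bmp1 activate Lox, stood at 374 and 1003 CPM (WT) and 3014, 2260 and 1561 CPM (KO) (1.73, SE 0.59). Fn1, fibronectin, and Tgfb2, a ligand, gave log2 fold changes, in this order, of 2.11 (SE 1.03) and 1.54 (SE 0.58).

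**Figure D5:**
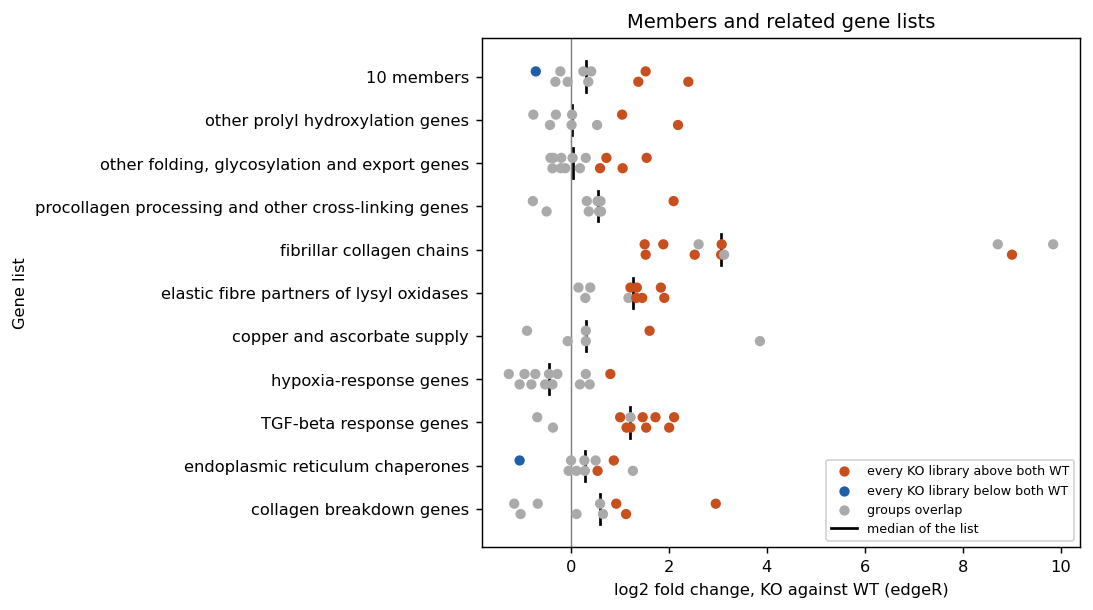
Log2 fold change (KO against WT, edgeR, all 5 libraries) of the 10 genes and of the tested genes of 10 related lists, 1 point per gene, with a black bar at each list's median. Orange points lie above both WT libraries in every KO library, blue points below, and grey points overlap. The medians are 3.07 for fibrillar collagen chains, 1.28 for elastic fibre partners and 0.31 for the 10 genes. The first of these includes 3 chains with at most 3 reads over the WT libraries.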

How the data were processed

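Libraries were made from mitral leaflet RNA with the SMART-Seq v4 kit, per the labels' protocols. The submitters' processing notes list cutadapt 1.11, FastQC 0.11.5, DESeq2 and HTSeq with GRCm38 and mm10 as builds. Aligner and annotation: not given in the sources used here. Raw read counts per gene symbol were deposited by the authors, and only these 5 columns were used.

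Counts were filtered with filterByExpr (14244 genes left), scaled by TMM (factors 0.837 to 1.073) and tested with edgeR 4.0.16 in R 4.3.3 (two-sided quasi-likelihood F test, robust, Benjamini-Hochberg over all genes). All 10 members passed the filter. A standard error is the log2 fold change divided by the root of F. DESeq2 1.42.0 and limma 3.58.1 (voom) were alternatives. The script was tested on simulated data. GENCODE M21 (GRCm38) gave coordinates and the length of the longest transcript, matched by symbol for 22758 of 24062 genes and by a unique synonym for 935. Replicate numbers follow the order of deposit only. Ratios to collagen used a pseudocount of 0.5 reads.

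The members and lists were chosen with earlier results of these data known. Named were all members, Ift88 and, of each list, the 4 genes with the smallest p, the most abundant and the one with the lowest fold change; others named were chosen after their values were seen. A gene that this rule names is not reported here. Precision is limited by the 5 libraries, which differ (median biological coefficient of variation 62.8%), more than by depth.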

Additional observations from a re-analysis of the deposited data

How the results depend on the processing

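No gene was called in any quasi-likelihood fit except without WT replicate 1 (245 genes, no member among them). With DESeq2 in place of edgeR, 2 members were called (Loxl1 and Loxl2), and 0 in each other fit. Leaving out 1 library at a time gave between 3 and 7 members above WT, beside 16.9% to 30.6% of all genes, and medians between -0.03 and 0.83; with only the shared title code there were 8 (41.2% of all genes), with a median of 0.80. These fits hold 1 WT library where a WT library is left out or the title code is used, so their p-values assume that it varies like KO. The median over all genes was 0.15 without WT replicate 1, 0.25 without WT replicate 2, 0.23 in the title code libraries and -0.25 with the length trend removed, where that of the members was -0.01. Loxl1, Loxl2, Lox and Loxl3 kept their signs in the 14 alternative fits. Signs turned for Plod3 (0.17 with limma-voom, -0.79 and 1.37 when WT replicates 1 and 2 in turn were dropped, 0.16 without KO replicate 3, 1.59 with the title code), P4ha2 (-0.97 without WT replicate 1, 0.81 without WT replicate 2, 0.76 with the title code), Serpinh1 (-0.68, 0.41 and 0.48 likewise), P4ha1 (-0.04 without WT replicate 1, 0.85 without WT replicate 2), Plod1 (-0.06 with the length trend removed) and Plod2 (-0.06 without KO replicate 1). The cause was not tested.

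The median log2 ratio to type I collagen was -1.63 with Col3a1 added, -1.62 with all fibrillar chains and between -2.74 and -1.70 without single libraries. For Loxl2 it turned to 0.66 and 0.67 with those collagens, 0.89 when WT replicate 2 was dropped (-1.04 for WT replicate 1) and 0.08 without KO replicate 2. The family ratios were set against alternatives chosen after seeing the data. Without single libraries the lysyl oxidases over the prolyl 4-hydroxylase subunits lay between 0.82 and 1.68 on the log2 scale, over lysyl hydroxylases between 0.89 and 1.36 and over Serpinh1 between 1.23 and 1.69, and with the title code these were 0.78, 0.73 and 1.08. Leaving out Loxl3 gave 1.67 over the prolyl 4-hydroxylase subunits and 1.87 over Serpinh1, and leaving out Loxl2 gave 1.12 over Serpinh1. Shares (percentage points, KO minus WT) turned for Lox (-5.83 and 11.1 when WT replicates 1 and 2 in turn were dropped, -5.19 without KO replicate 3), Loxl1 (-1.13 without WT replicate 2, 5.94 without WT replicate 1), Plod1 (-10.7, -1.32 and -0.449), Plod2 (-5.9, -1.31 and -0.856) and Plod3 (16.6, 2.63 and 1.3), each without WT replicate 2, KO replicate 1 and KO replicate 3; without WT replicate 1 these 3 were 10.9, 7.23 and -18.2. No paired analysis was possible because the labels do not number replicates. The title code can be a block (shared code against the others, chosen after seeing the data): 0 members were called, the median was 0.33, and P4ha2 (0.05) and Plod3 (0.27) turned sign.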

Other observations

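Of 10 general chaperones of the endoplasmic reticulum 0 passed the edgeR test, 2 lay above WT in every KO library and 1 below, and the median log2 fold change was 0.28 (-0.06 and 0.53 when WT replicates 1 and 2 in turn were dropped). Hsp90b1, the chaperone GRP94, stood at 223 and 302 CPM (WT) and 600, 485 and 367 CPM (KO) (log2 fold change 0.88, SE 0.38). Sdf2l1, a cofactor of the chaperone Hspa5, stood at 34.7 and 52.6 CPM for WT, with KO libraries at 23.8, 16.8 and 23 (-1.04, SE 0.43). Of 9 tested genes of collagen breakdown 0 passed, 3 lay above WT in every KO library and 0 below, and the median was 0.60 (0.04 and 2.14 in those fits). Mrc2, the receptor that takes up cleaved collagen, stood at 1.37 and 1.89 CPM in the WT pair against 15.8, 16.9 and 5.53 in the KO libraries (2.96, SE 0.91). Mmp14, a membrane collagenase, stood at 51.2 and 231 CPM (WT) and 250, 320 and 239 CPM (KO), and Timp1, an inhibitor of these proteases, at 41 and 229 CPM for WT, with KO libraries at 75.3, 56.3 and 68.8. Canx, calnexin, had a log2 fold change of 0.51 (SE 0.37). Mmp2, a gelatinase, had one of 1.13 (SE 0.65), Timp3, another inhibitor, one of 0.60 (SE 0.64) and Mmp13, a collagenase, one of -1.15 (SE 1.82).

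The mean profile of the 10 genes over the 5 libraries was nearest to those of Pdia3, Srrt and Cndp2 among 10785 genes with a mean of at least 5 CPM, with root mean square distances of 0.0566, 0.0651 and 0.0707 on the centred log2 scale. Of the members P4ha1 lay nearest to this mean (0.199) and Loxl2 farthest (1.01). Pdia3, a disulphide isomerase, stood at 346 and 631 CPM in the WT pair against 798, 687 and 655 in the KO libraries.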
